A study of Mus musculus with 8 samples.

Results

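The genes described here are 7 genes of class II antigen presentation, *H2-Aa*, *H2-Ab1*, *H2-Eb1*, *Cd74*, *H2-DMa*, *H2-DMb1* and *Ciita*. They were taken by name, without a cutoff on their values, from a table of transcript abundances in mouse liver. All 7 were found among its 55416 listed genes. The list was chosen with earlier results of these data known. RNA sequencing was done on 8 liver libraries, 4 from floxed controls (genotype Alb-cre-, without Cre recombinase) and 4 from hepatocyte knockouts (Alb-cre+), in which Cre under the albumin promoter deletes *Smpd3* in hepatocytes. *Smpd3* encodes neutral sphingomyelinase 2, which cleaves sphingomyelin to ceramide and phosphocholine. Animals of both groups were fed the HFMCD diet for 9 weeks, used in the study to induce steatohepatitis, and no group on another diet was analysed here. Since Cre was present in the knockouts alone, its presence and the deletion of *Smpd3* cannot be told apart. Strain, sex and age of the mice are not stated in the sources used here. Nothing in the labels ties each library to an animal of its own, and the p-values measure the spread between libraries, which may be technical.

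Class II molecules present peptides from the endocytic pathway to CD4 T cells. An alpha and a beta chain pair in the endoplasmic reticulum on the invariant chain CD74, which guides them to endosomes and fills the peptide groove until proteases cut it down to the fragment CLIP. The H2-DM heterodimer then exchanges CLIP for other peptides. Transcription of these genes depends on CIITA, a coactivator that does not bind DNA itself but docks on the factors RFX, CREB and NF-Y at a conserved promoter stretch with an X box and a Y box. In the liver the main class II-bearing cells are dendritic cells, B cells, Kupffer cells and other macrophages, and sinusoidal endothelial cells. Interferon gamma can induce class II genes in further cell types.

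The X and Y boxes are shown because they are the shared promoter feature through which *Ciita* acts on the other members. Promoter windows of 300 bases, 250 before and 50 after a start site, were available from RefSeq (GRCm38.p6) for 4 of the 7 members, all on chromosome 17. In the sequences below, written 5′ to 3′ on the gene's strand, the capitals mark the X core (CNNGNAAC) and the Y box (TGATTGG). *H2-Aa* lies at chr17:34287852-34287927 on the minus strand. The others lie on the plus strand, *H2-Eb1* at chr17:34305753-34305827, *H2-DMb1* at chr17:34153074-34153149 and *H2-Eb2*, a class II beta chain gene shown for contrast because it was barely detected, at chr17:34325520-34325594.
H2-Aa: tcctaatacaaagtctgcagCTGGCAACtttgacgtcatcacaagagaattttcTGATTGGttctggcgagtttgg
H2-Eb1: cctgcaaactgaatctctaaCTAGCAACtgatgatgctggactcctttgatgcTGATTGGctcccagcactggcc
H2-DMb1: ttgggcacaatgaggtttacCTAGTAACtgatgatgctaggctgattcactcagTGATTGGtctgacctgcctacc
H2-Eb2: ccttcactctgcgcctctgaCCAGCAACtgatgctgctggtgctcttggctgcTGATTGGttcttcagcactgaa

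In *H2-Aa* the X core began 84 bases before the start site and the Y box 50 bases before it. In *H2-Eb1* these positions were 94 and 61 bases, and in *H2-DMb1* 97 and 63 bases. The starts of the 2 boxes were thus 33 or 34 bases apart in each of the 3 genes. Both windows of *H2-DMa* held an X core without these Y box letters, which says only that the letters are not in these windows. Among the other class II chains, *H2-Oa*, *H2-Ob* and *H2-Eb2* held the pair. *H2-DMb2* held both boxes but no pair at this spacing. Searched on both strands of 32851 RefSeq promoter windows, the X core occurred in 39.1%, the Y box in 7.82%, and an X core 20 to 40 bases before a Y box in 54 windows or 0.164%. The letters were spelled after these windows had been looked at, and the X core does not overlap the Y box, so these counts describe the windows and test nothing.

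**Figure D1:**
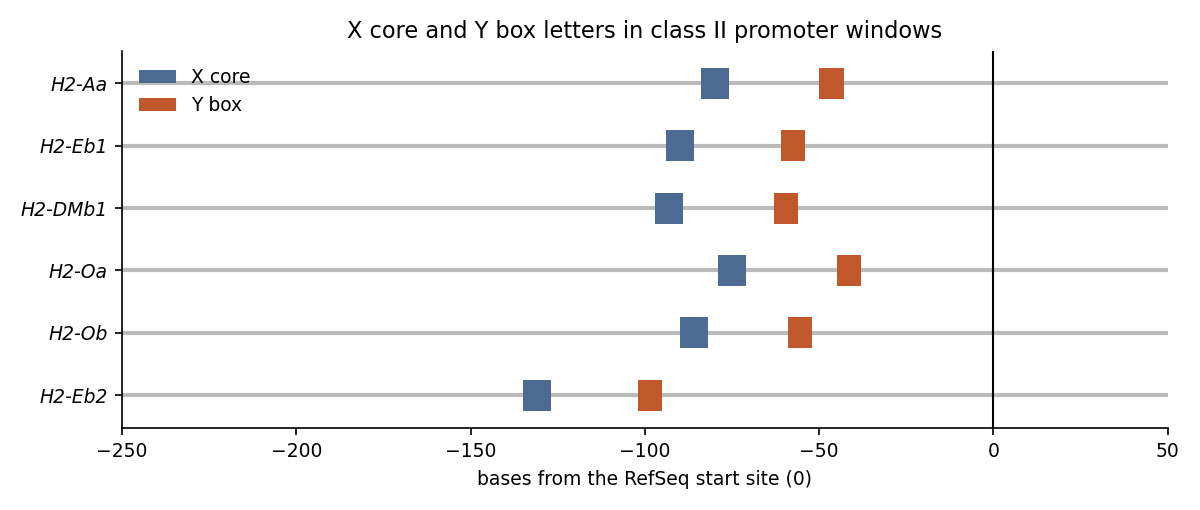
Position of the X core (blue) and the Y box (orange) in 6 class II promoter windows, in bases from the RefSeq start site at 0. The boxes lie between 135 and 45 bases before the start site by their first base, with *H2-Eb2* farthest from it.

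*Smpd3* checked the labels. It stood at 8.69, 10.72, 12.54 and 6.38 TPM (controls 1 to 4) and at 1.17, 3.03, 1.27 and 2.06 TPM (knockouts 1 to 4) (-1.89 ± 0.24 on the log2 scale, with its SE; adjusted p = 0.0300 in limma, and 0.0964 without floxed control 4). TPM is a share of each library's transcripts scaled by length, so depth is unknown and no counting interval can be given. A log2 fold change here is the mean log2(TPM + 1) of the knockouts minus that of the controls, a scale that understates differences of low genes. A gene passed at a Benjamini-Hochberg adjusted p of 0.05 over the 12710 genes that reached 1 TPM in at least 4 libraries. Of these, 13 genes passed, or 0.102%. Floxed control 4 stood apart, with 12115 genes reaching 1 TPM where the other 7 libraries had 12474 to 12890, and its mitochondrially encoded genes took 8.92% of its TPM against 6.72 to 8.04%. The class II genes and each gene list are therefore given with and without it.

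All 7 class II genes had higher mean values in the knockout livers, by 1.17 to 1.42 times, and none passed the test. The chain genes *H2-Aa*, *H2-Ab1* and *H2-Eb1* and the invariant chain *Cd74* were abundant, at means of 165 to 641 TPM. The peptide exchange genes *H2-DMa* and *H2-DMb1* stood at 20.3 to 25.1 TPM and *Ciita* at 1.99 to 2.82 TPM. Floxed control 4 was the lowest of all 8 libraries in each of the 7 genes. All 7 genes passed the filter on low values, and *H2-Aa* and *H2-Eb1* had an unadjusted p under 0.05 in limma, which 8.02% of all genes tested had. The groups overlapped in all 7, whereas 4.74% of all genes had groups without overlap. Positive differences were found in 7 of 7 members and in 64.6% of all genes tested. The members' median log2 fold change was 0.42, beside 0.05 over all genes. Without floxed control 4 it was 0.22, beside -0.01 over all genes. A lower or higher number of class II-bearing cells and less or more RNA per cell cannot be told apart in whole liver.

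**Figure D2:**
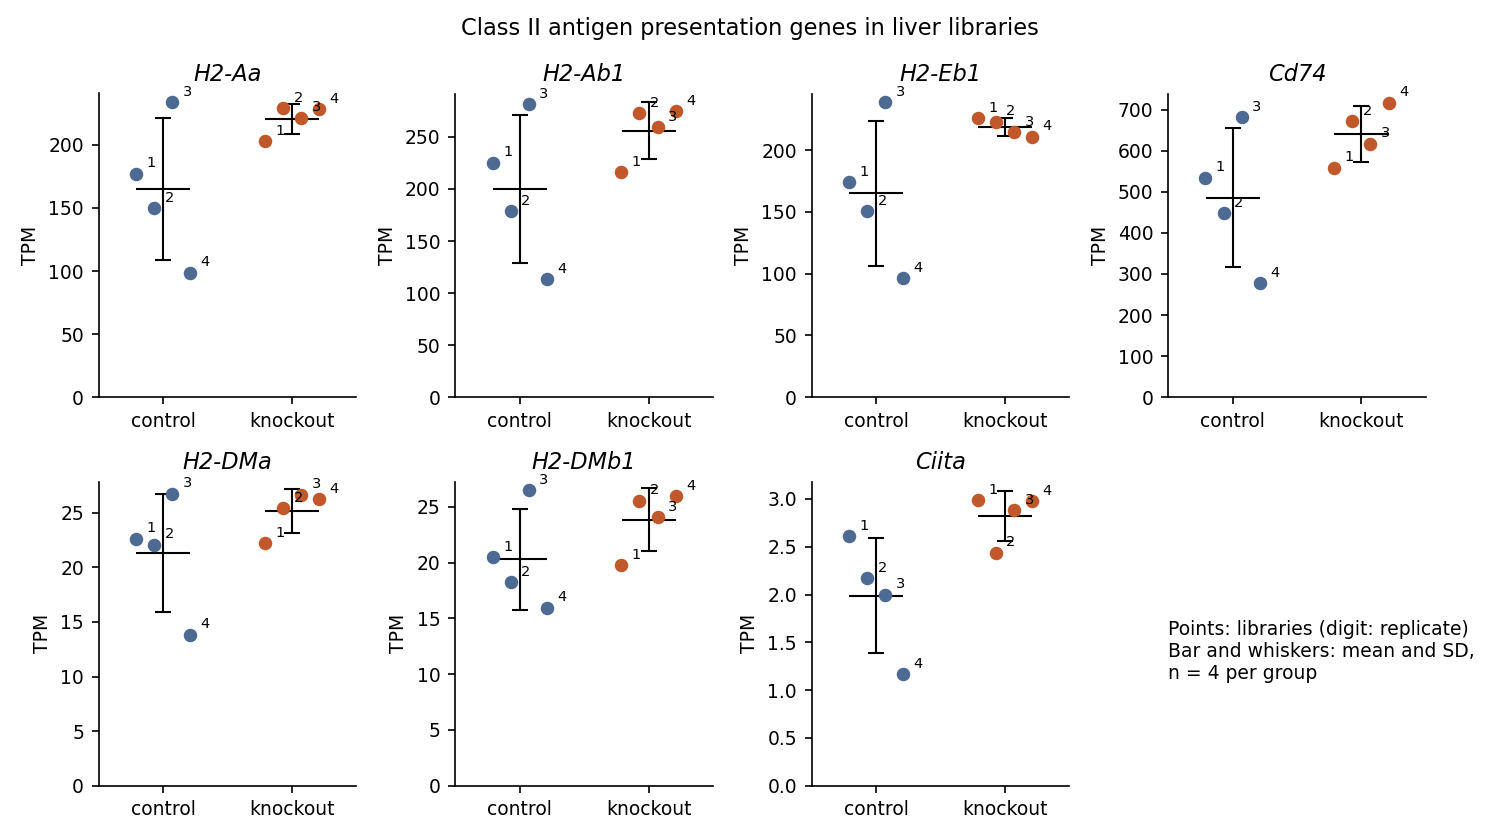
TPM of the 7 class II genes in each library, with floxed controls in blue, hepatocyte knockouts in orange, the replicate number beside each point, and the mean and SD of 4 libraries as bars. Floxed control 4 is the lowest point in every panel, and the groups overlap in all 7.

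*H2-Aa* (ENSMUSG00000036594) encodes the alpha chain of I-A, the class II molecule whose chains *H2-Aa* and *H2-Ab1* form together. It stood at 177.24, 149.94, 234.02 and 98.79 TPM (controls 1 to 4) and at 203.24, 229.05, 221.56 and 228.57 TPM (knockouts 1 to 4). Floxed control 3 was above all knockouts, and the other controls were below all of them. The means of controls and knockouts were 165 ± 56.3 and 221 ± 12.1 TPM (SD, n = 4 each), a log2 fold change of 0.48 ± 0.21 (SE; adjusted p = 0.606 in limma). Without floxed control 4 the control mean was 187 ± 42.9 TPM (SD, n = 3 libraries) and the log2 fold change 0.26 ± 0.14 (adjusted p = 0.708 in limma).

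*H2-Ab1* (ENSMUSG00000073421), the beta chain of I-A, stood at 225.29, 178.87, 281.87 and 113.69 TPM (controls 1 to 4) and at 216.23, 272.97, 259.52 and 274.97 TPM (knockouts 1 to 4). Floxed control 3 was again the highest of all libraries, and knockout 1 was below floxed controls 1 and 3. The means were 199.93 ± 71.3 and 256 ± 27.3 TPM (SD, n = 4 each), with a log2 fold change of 0.42 ± 0.23 (SE; adjusted p = 0.707 in limma). It was 0.18 ± 0.15 without floxed control 4 (adjusted p = 0.831 in limma).

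*H2-Eb1* (ENSMUSG00000060586) encodes the beta chain of I-E, the other class II molecule of the mouse. It stood at 173.95, 150.76, 238.75 and 96.37 TPM (controls 1 to 4) and at 226.04, 223.14, 214.6 and 211.04 TPM (knockouts 1 to 4). The knockouts were close together, while floxed control 3 lay above and the other controls below all of them. The means were 165 ± 59.0 and 219 ± 7.05 TPM (SD, n = 4 each), with a log2 fold change of 0.48 ± 0.21 (SE; adjusted p = 0.622 in limma). Without floxed control 4 it was 0.24 ± 0.14 (adjusted p = 0.727 in limma).

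*Cd74* (ENSMUSG00000024610), the invariant chain, was the most abundant of the 7 genes in each library. It stood at 534.63, 447.6, 681.8 and 276.81 TPM (controls 1 to 4) and at 558.85, 671.28, 616.95 and 717.2 TPM (knockouts 1 to 4). Only floxed control 3 reached into the range of the knockouts, above knockouts 1 to 3 and below knockout 4. The means were 485 ± 169 and 641 ± 68.4 TPM (SD, n = 4 each), with a log2 fold change of 0.47 ± 0.22 (SE; adjusted p = 0.658 in limma), which became 0.22 ± 0.14 without floxed control 4 (adjusted p = 0.759 in limma).

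The genes of the H2-DM heterodimer differed less between the groups. *H2-DMa* (ENSMUSG00000037649), its alpha chain, stood at 22.63, 22.08, 26.75 and 13.85 TPM (controls 1 to 4) and at 22.21, 25.44, 26.66 and 26.25 TPM (knockouts 1 to 4). Floxed controls 1 to 3 covered nearly the same range as the knockouts, and floxed control 4 lay far below. The means were 21.3 ± 5.40 and 25.1 ± 2.02 TPM (SD, n = 4 each), with a log2 fold change of 0.26 ± 0.17 (SE; adjusted p = 0.801 in limma), and 0.08 ± 0.11 without floxed control 4 (adjusted p = 0.916 in limma). In the GENCODE vM21 annotation its locus overlaps *Brd2* on the opposite strand, listed at 42.6 to 58.4 TPM. Whether the counting used strand was not stated in the sources used here, and reads could be shared between these genes.

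*H2-DMb1* (ENSMUSG00000079547), a beta chain of H2-DM, stood at 20.47, 18.27, 26.48 and 15.95 TPM (controls 1 to 4) and at 19.75, 25.56, 24.1 and 25.94 TPM (knockouts 1 to 4). Floxed control 3 was the highest of all libraries, and knockout 1 lay among the controls. The means were 20.3 ± 4.52 and 23.8 ± 2.84 TPM (SD, n = 4 each), with a log2 fold change of 0.24 ± 0.15 (SE; adjusted p = 0.792 in limma), and 0.14 ± 0.15 without floxed control 4 (adjusted p = 0.875 in limma). Its near copy *H2-DMb2* can share reads with it, so both values are uncertain.

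*Ciita* (ENSMUSG00000022504), the coactivator, stood at 2.61, 2.17, 2.0 and 1.17 TPM (controls 1 to 4) and at 2.99, 2.44, 2.88 and 2.98 TPM (knockouts 1 to 4). Knockouts 1, 3 and 4 were above all controls, and floxed control 1 was above knockout 2. In contrast to the other 6 genes, floxed control 3 was the second lowest library rather than the highest control. The means were 1.99 ± 0.60 and 2.82 ± 0.26 TPM (SD, n = 4 each), the largest ratio of means among the members, with a log2 fold change of 0.38 ± 0.17 (SE; adjusted p = 0.633 in limma), and 0.23 ± 0.14 without floxed control 4 (adjusted p = 0.746 in limma). Its locus overlaps *Dexi* on the opposite strand, listed at 13.5 to 21.5 TPM, and reads could likewise be shared.

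The size of the difference rested on single controls in both directions. Without floxed control 4 the 7 values kept their sign, the ratios of means were 1.06 to 1.25, and no member had an unadjusted p under 0.05, beside 8.09% of the 12639 genes then tested. The groups still overlapped in all 7, while 8.41% of all genes had groups without overlap. Positive differences made up 48.7% of all genes in that comparison, and 0% of them passed. Floxed control 3 was the highest control in 6 of the 7 members, so leaving it out had to raise the differences of those 6. Without it the values went the other way, with a median of 0.61, beside 0.06 over all genes, of which 64.9% were positive. *H2-Aa* then stood 0.67 ± 0.17 higher (SE; adjusted p = 0.304 in limma) and *H2-Eb1* 0.68 ± 0.17 higher (SE; adjusted p = 0.300 in limma). In that comparison 5 of 7 members had an unadjusted p under 0.05, beside 7.19% of all genes. *H2-Aa*, *H2-Eb1* and *Cd74* did not overlap between the groups, as did 5.23% of all genes with higher knockouts. Because the library left out was high in these same genes, both counts follow in part from that choice and test nothing. The shares of all genes involve no such choice. Again no member passed, beside 0.0159% of all genes.

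**Figure D3:**
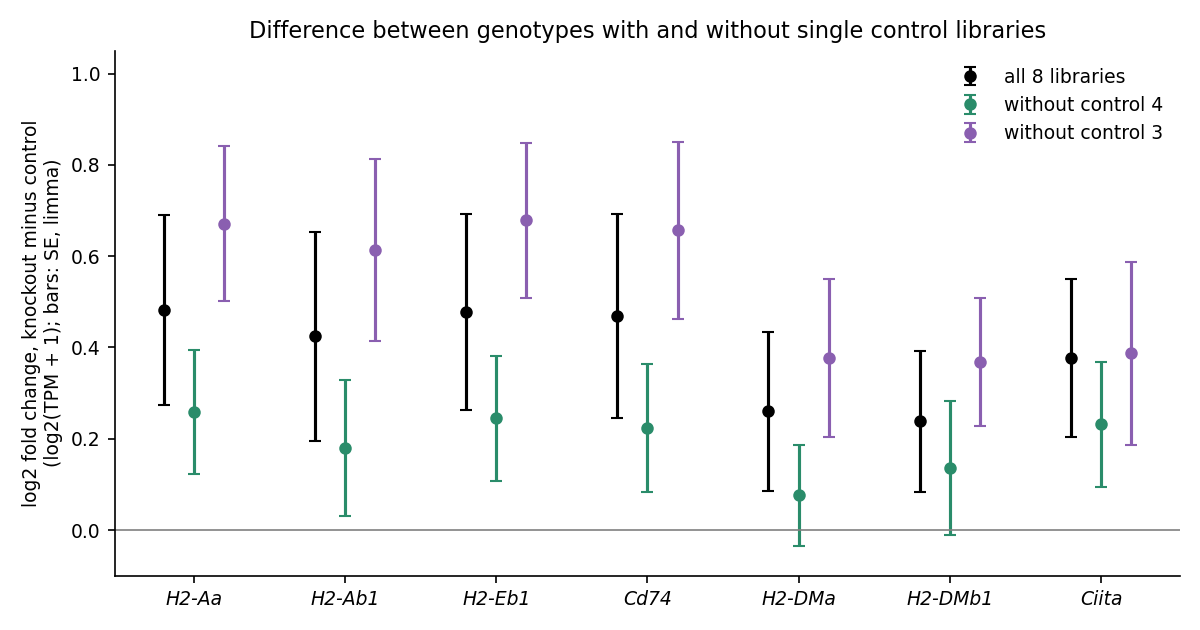
Log2 fold change (knockout minus control, log2(TPM + 1) scale) of the 7 class II genes with all 8 libraries (black), without floxed control 4 (green) and without floxed control 3 (purple), with bars of 1 SE from limma. All points lie above 0. Those without floxed control 4 are the lowest of the 3 for every gene, at 0.08 to 0.26.

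The controls differed more among themselves than the knockouts did. The coefficient of variation, the SD as a percent of the mean, was 22.3 to 35.7% in the controls and 3.22 to 11.9% in the knockouts, and it was lower in the knockouts for 7 of 7 members. Over all genes tested it was lower in the knockouts for 57.0%. In floxed control 4 the members stood at 49.7 to 73.4% of the mean of the other controls, lowest for *H2-Ab1* and highest for *H2-DMb1*. Floxed control 4 was the lowest of all libraries for 44.8% of all genes tested.

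Within a library the chains kept similar proportions. *Cd74* was 2.37 to 2.61 times as abundant as *H2-Ab1* over the 8 libraries, 2.75 to 3.14 times as abundant as *H2-Aa*, and 2.47 to 3.398 times as abundant as *H2-Eb1*, where knockouts 1 and 4 held the extremes. *H2-Ab1* was above *H2-Aa* in 8 of 8 libraries, by 1.06 to 1.27 times. *H2-Aa* and *H2-Eb1* could not be ordered, since their ratio ran from 0.899 to 1.08 and *H2-Aa* was the higher in 5 of 8 libraries. *H2-Eb1* was 6.83 to 10.2 times as abundant as *H2-DMa*. *H2-DMa* and *H2-DMb1* could not be ordered either, with ratios of 0.868 to 1.21. The ratio of *H2-DMb1* to *Ciita* was the loosest, from 6.61 to 13.6, with the highest values in floxed controls 3 and 4.

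Correlations of log2(TPM + 1) across libraries describe the same pattern, over 8 libraries that share their scaling and group differences. The 15 pairs of members without *Ciita* had Pearson r values of 0.85 to 0.99, and of 0.65 to 0.98 without floxed control 4. The 6 pairs with *Ciita* had 0.56 to 0.79 with all libraries and -0.03 to 0.23 without floxed control 4. The covariation of *Ciita* with the genes it regulates thus rested on that library. With the group means removed, the pairs with *Ciita* had 0.35 to 0.73.

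Among tested genes outside the 7, those with the highest r to the members' mean level over the 8 libraries were *Depdc7* (0.98), *Thtpa* (0.98), *Naaa* (0.97), *Wdr76* (0.97), *Itpk1* (0.97), *Gemin7* (0.97), *Zswim8* (0.97) and *Ly6a* (0.97). After leaving out floxed controls 4 and 2, the libraries farthest from the median of the members' mean, the values over the remaining 6 libraries were 0.47 to 0.81. The high values therefore rested largely on these libraries. The members were affected too: over the same 6 libraries the 15 pairs without *Ciita* had 0.47 to 0.999. The 6 pairs with *Ciita* had -0.48 to -0.28. Among the 8 genes outside the members, *Ly6a*, which encodes the surface antigen Sca-1, kept the highest value, 0.81. It stood at 40.45, 33.01, 67.89 and 21.32 TPM (controls 1 to 4) and at 51.69, 52.7, 49.92 and 58.81 TPM (knockouts 1 to 4), with floxed control 3 above and the other controls below all knockouts, as in *H2-Aa* and *H2-Eb1*.

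Of 5 further class II chain genes, 3 were high enough to be tested and none passed, all with higher values in the knockouts. *H2-DMb2*, the second beta chain of H2-DM, stood at 2.33, 1.45, 1.61 and 1.45 TPM (controls 1 to 4) and at 2.22, 3.05, 2.33 and 2.14 TPM (knockouts 1 to 4) (log2 fold change 0.35, adjusted p = 0.633 in limma). *H2-Oa* and *H2-Ob* encode H2-O, which inhibits H2-DM, and had log2 fold changes of 0.22 and 0.15. Unlike the members, none of these chain genes was lowest in floxed control 4 alone, and their median log2 fold change was 0.22 with and 0.24 without that library. *H2-Eb2*, whose promoter window holds the box pair shown above, ranged from 0.20 to 0.53 TPM and was not tested. *H2-Ea*, the alpha chain of I-E, was listed at 0 in all 8 libraries. Some inbred mouse strains do not transcribe this gene, and then no I-E molecule reaches the surface even where *H2-Eb1* is expressed.

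Of 14 genes of factors that act on class II promoters or on *Ciita*, 12 were tested and none passed. They had higher values in 8 of 12, and in 4 of 12 without floxed control 4. Their median log2 fold change was 0.06, and -0.09 without that library. *Rfxank*, a subunit of RFX, the X box factor, stood at 8.22, 8.49, 11.35 and 10.05 TPM (controls 1 to 4) and at 13.39, 13.79, 10.62 and 14.73 TPM (knockouts 1 to 4). Knockouts 1, 2 and 4 were above all controls, and knockout 3 lay among them. The log2 fold change was 0.43 ± 0.14 (SE; adjusted p = 0.397 in limma), and 0.45 without floxed control 4. The other RFX subunits differed in sign, with 0.24 for *Rfx5* and -0.09 for *Rfxap*. *Nfya*, a subunit of the Y box factor NF-Y, stood at 11.61, 9.77, 9.87 and 6.2 TPM (controls 1 to 4) and at 5.27, 7.99, 7.66 and 7.56 TPM (knockouts 1 to 4) (-0.34, adjusted p = 0.732 in limma). Without floxed control 4 its groups did not overlap, with the knockouts lower (-0.50, adjusted p = 0.400 in limma), as for 4.56% of all genes. Floxed control 4 was its lowest control, so this separation follows in part from leaving that library out. *Nfyb* had a log2 fold change of 0.15.

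Interferon gamma induces *Ciita*, and its pathway and target genes had higher values in 13 of 14 tested members, none of which passed. Their median log2 fold change was 0.22, and 0.09 without floxed control 4, when 8 of 14 had higher values. Over all genes tested 64.6% had positive differences, and 48.7% without that library. *Cxcl9*, a chemokine that draws T cells, stood at 7.15, 6.75, 10.72 and 8.19 TPM (controls 1 to 4) and at 9.13, 10.56, 14.22 and 13.07 TPM (knockouts 1 to 4). Its log2 fold change was 0.47 (adjusted p = 0.493 in limma), and 0.48 without floxed control 4, so that this gene did not move with that library. *Ifng* itself ranged from 0 to 1.02 TPM and was not tested.

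The genes around the class II molecules in the endosome showed no common direction. Of 12 genes of antigen processing and class II turnover, 7 had higher values, and 4 without floxed control 4. None passed, and the median log2 fold change was 0.04, and -0.17 without that library. *Ctss*, which encodes cathepsin S, the protease that trims the invariant chain, stood at 452.79, 444.58, 486.69 and 239.21 TPM (controls 1 to 4) and at 383.33, 458.37, 334.85 and 465.39 TPM (knockouts 1 to 4). Its knockouts lay around or below floxed controls 1 to 3 (log2 fold change 0.06, and -0.18 without floxed control 4). *Cd63*, a tetraspanin of the compartments where class II is loaded, had the smallest p of the list (0.28, adjusted p = 0.807 in limma, and 0.10 without floxed control 4). Among 7 costimulatory and checkpoint ligands, 4 were tested and none passed. Higher values were found in 2 of 4, and in 0 of 4 without floxed control 4.

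Class I presentation genes, which load peptides from the cytosol, had higher values in 13 of 13, beside 64.6% of all genes tested, and none passed. Without floxed control 4 higher values were found in 10 of 13, beside 48.7% of all genes. The median log2 fold change of the list was 0.12, and 0.05 without that library. The shared chaperones led this list. *Calr*, calreticulin, stood at 510.7, 457.02, 534.1 and 513.97 TPM (controls 1 to 4) and at 602.41, 615.9, 689.09 and 796.58 TPM (knockouts 1 to 4), and *Pdia3* had a log2 fold change of 0.36, and 0.35 without floxed control 4. Both genes did not overlap between the groups, as did 3.29% of all genes with higher knockouts, and the log2 fold change of *Calr* was 0.42 (adjusted p = 0.200 in limma), and 0.43 without floxed control 4. The class I heavy chains *H2-K1* and *H2-D1* overlapped, with 0.14 and 0.16. At an unadjusted p under 0.05 in limma, which 8.02% of all genes had, there were 2 of 13 class I genes, 1 of 12 promoter regulators and 1 of 14 interferon gamma genes. There were 0 of 3 other class II chains, 0 of 12 processing genes and 0 of 4 costimulatory ligands.

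**Figure D4:**
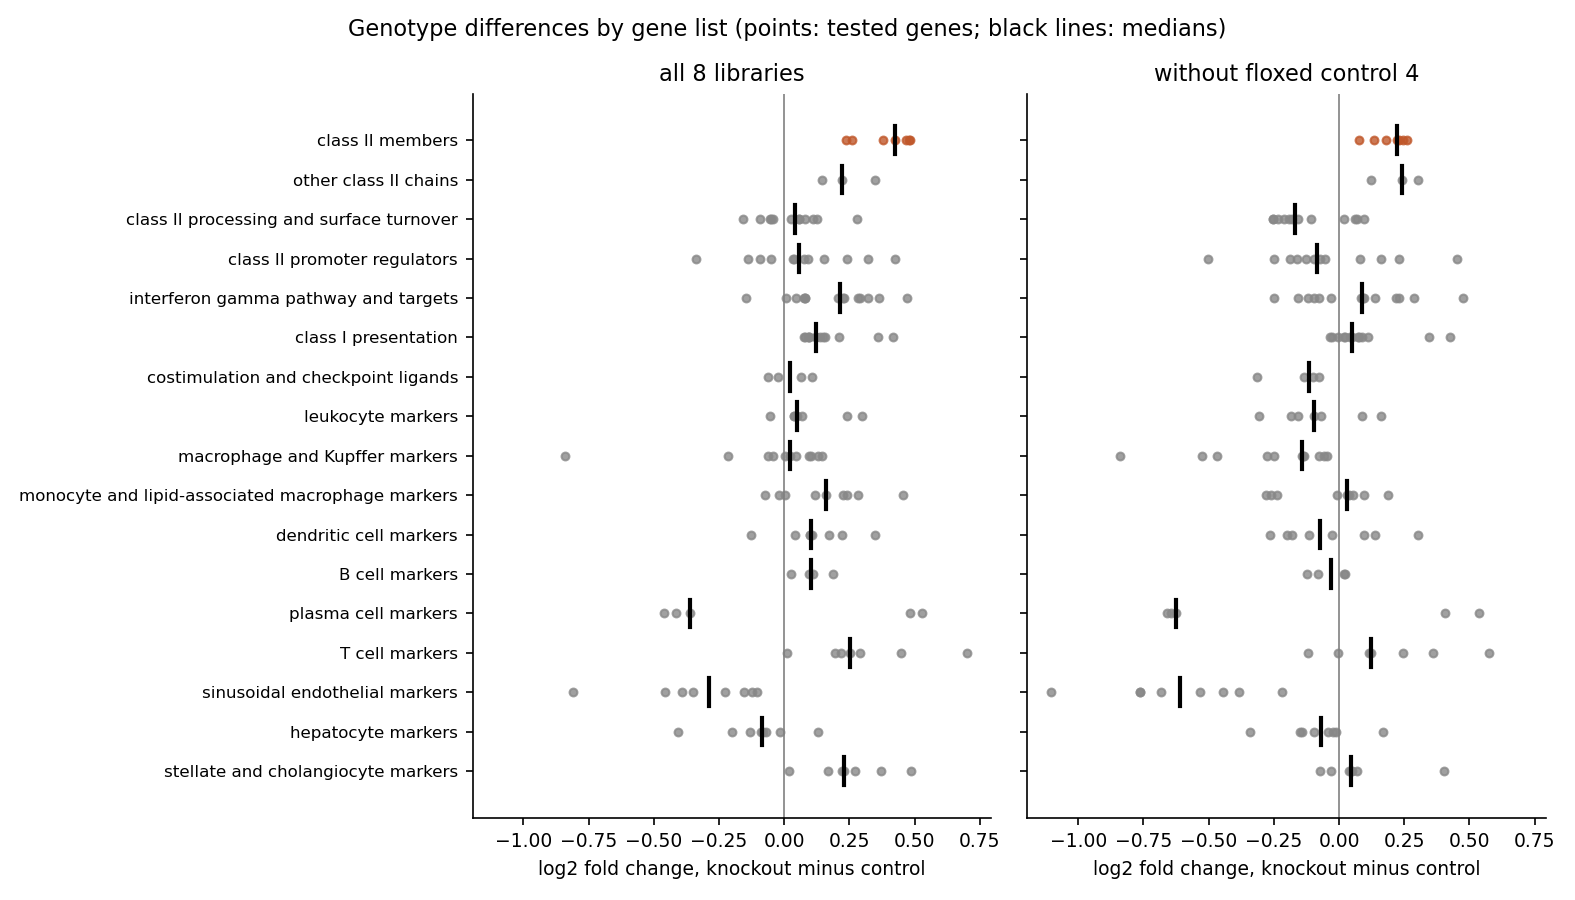
Log2 fold change (knockout minus control) of every tested gene in the class II list (orange) and 16 other gene lists (grey), with all 8 libraries (left) and without floxed control 4 (right); black lines mark medians. The class II median goes from 0.42 to 0.22 and the sinusoidal endothelial median from -0.29 to -0.61.

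Markers of the cells that bear class II molecules moved in part with the same control library. Floxed control 4 was the lowest control in 10 of 11 tested macrophage, 4 of 4 B cell and 8 of 8 sinusoidal endothelial markers. For dendritic cell markers it was so in 5 of 8, near the 62.6% of all genes tested. Of 12 macrophage and Kupffer cell markers, 11 were tested, 7 had higher values and none passed, and without floxed control 4 none of the 11 had a higher value. Their summed level ranged from 1385 to 2590 TPM in the controls, from 2245 TPM without floxed control 4, and from 1930 to 2590 TPM in the knockouts. The pan-leukocyte marker *Ptprc* stood at 9.55, 9.92, 8.83 and 4.21 TPM (controls 1 to 4) and at 5.14, 8.44, 10.05 and 10.11 TPM (knockouts 1 to 4) (log2 fold change 0.07, and -0.18 without floxed control 4). The macrophage marker *Adgre1* had -0.06, and -0.47 without floxed control 4. *Marco*, a scavenger receptor of Kupffer cells, was the one tested marker of the list without overlap, beside 4.74% of all genes in either direction. Its control and knockout means were 17.9 ± 1.52 and 9.62 ± 1.73 TPM (SD, n = 4 each; log2 fold change -0.84, adjusted p = 0.0609 in limma). Its adjusted p in limma ranged from 0.0426 after rescaling to 0.601 relative to the macrophage markers, which include *Marco* itself. It was 0.143 without floxed control 4. Their part in the class II values was not tested.

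Of 10 dendritic cell markers, 8 were tested, and 7 had higher values with all libraries but 3 without floxed control 4, where the median went from 0.10 to -0.07. They had a summed level of 20.5 to 41.4 TPM in the controls, from 38.9 TPM without floxed control 4, and of 34.5 to 41.8 TPM in the knockouts. *Ccr7*, a receptor of migrating dendritic cells, stood at 1.92, 1.43, 2.27 and 1.52 TPM (controls 1 to 4) and at 2.78, 2.78, 2.51 and 2.05 TPM (knockouts 1 to 4) (0.35, adjusted p = 0.616 in limma, and 0.30 without floxed control 4). The defining markers *Xcr1* and *Flt3* stayed under 1 TPM in every library. Of 10 B cell markers, 4 reached the filter, with higher values in 4 of 4, and in 2 of 4 without floxed control 4 (median -0.03). Their sum was 10.7 TPM in floxed control 4, 19.3 to 19.7 TPM in the other controls and 18.9 to 19.7 TPM in the knockouts. T cell markers had higher values in 7 of 7 tested of 10, and in 5 of 7 without floxed control 4 (median 0.25, and 0.12 without it). Their sum was 9.51 TPM in floxed control 4, 13.1 to 24.1 TPM in the other controls and 13.2 to 30.9 TPM in the knockouts. *Cd3g* stood at 2.44, 1.11, 3.9 and 1.31 TPM (controls 1 to 4) and at 3.2, 2.82, 4.77 and 5.22 TPM (knockouts 1 to 4) (0.70, adjusted p = 0.534 in limma, and 0.57 without floxed control 4). No marker of these lists passed or was at 0 in every library. Positive differences made up 64.6% of all genes tested, and 48.7% without floxed control 4.

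Sinusoidal endothelial markers went against the class II genes. All 8 had lower values in the knockouts, none passed, and the median log2 fold change was -0.29, and -0.61 without floxed control 4. With all libraries 0 of 8 were without overlap. Without floxed control 4, 6 of 8 were lower without overlap, beside 4.56% of all genes. That library was the lowest control in all 8 markers, so leaving it out had to lower their differences. The count of 6 follows in part from that choice and tests nothing. *Lyve1* had means of 4.83 and 2.18 TPM (-0.81, adjusted p = 0.397 in limma), and its log2 fold change was -1.10 without floxed control 4 (adjusted p = 0.109 in limma). Their summed level was 52.1 to 145 TPM in the controls, from 117 TPM without floxed control 4, and 68.8 to 93.6 TPM in the knockouts. Floxed control 4 was lowest of the controls in 8 of 8 of these markers, as it was in the 7 class II genes, beside 62.6% of all genes tested. The knockout means of these markers were below the control means both with and without that library. Floxed control 4 itself was the lowest of all 8 libraries in 7 of 8 markers, beside 44.8% of all genes tested. At an unadjusted p under 0.05 in limma, beside 8.02% of all genes, there were 1 of 11 macrophage, 1 of 8 dendritic cell, 0 of 4 B cell, 2 of 7 T cell, 2 of 5 plasma cell and 1 of 8 sinusoidal endothelial markers. Plasma cell markers had a median of -0.36, and -0.62 without floxed control 4, with lower values in 3 of 5. The 2 with an unadjusted p under 0.05 in limma, *Ighm* (0.48) and *Derl3* (0.53), were higher in the knockouts. *Ighm* did not overlap between the groups, as did 3.29% of all genes with higher knockouts.

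Because floxed control 4 was low in the macrophage markers as well as in the class II genes, each member was also set against the mean log2 level of the 11 tested macrophage and Kupffer markers of its own library. This reference was chosen after the values had been seen, and Kupffer cells are only one of the class II-bearing cell types. On this scale *H2-Aa* stood at 0.78, 0.52, 0.96 and 0.71 in floxed controls 1 to 4 and at 1.498, 1.27, 1.29 and 1.07 in knockouts 1 to 4. Floxed control 4 now lay among the other controls, and all knockouts were above all controls. The difference was 0.54 ± 0.22 (SE; adjusted p = 0.9996 in limma), and the spread of the reference enters every gene in this fit. *H2-Ab1*, *Cd74*, *H2-DMa* and *Ciita* did not overlap between the groups either, making 5 of 7 members, beside 1.34% of all genes with higher knockouts. *H2-DMa* and *Ciita* were apart only narrowly, floxed control 4 being next below the lowest knockout in both, at -4.81 and -4.79 for *Ciita*. No member passed on this scale, beside 0.0315% of all genes.

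**Figure D5:**
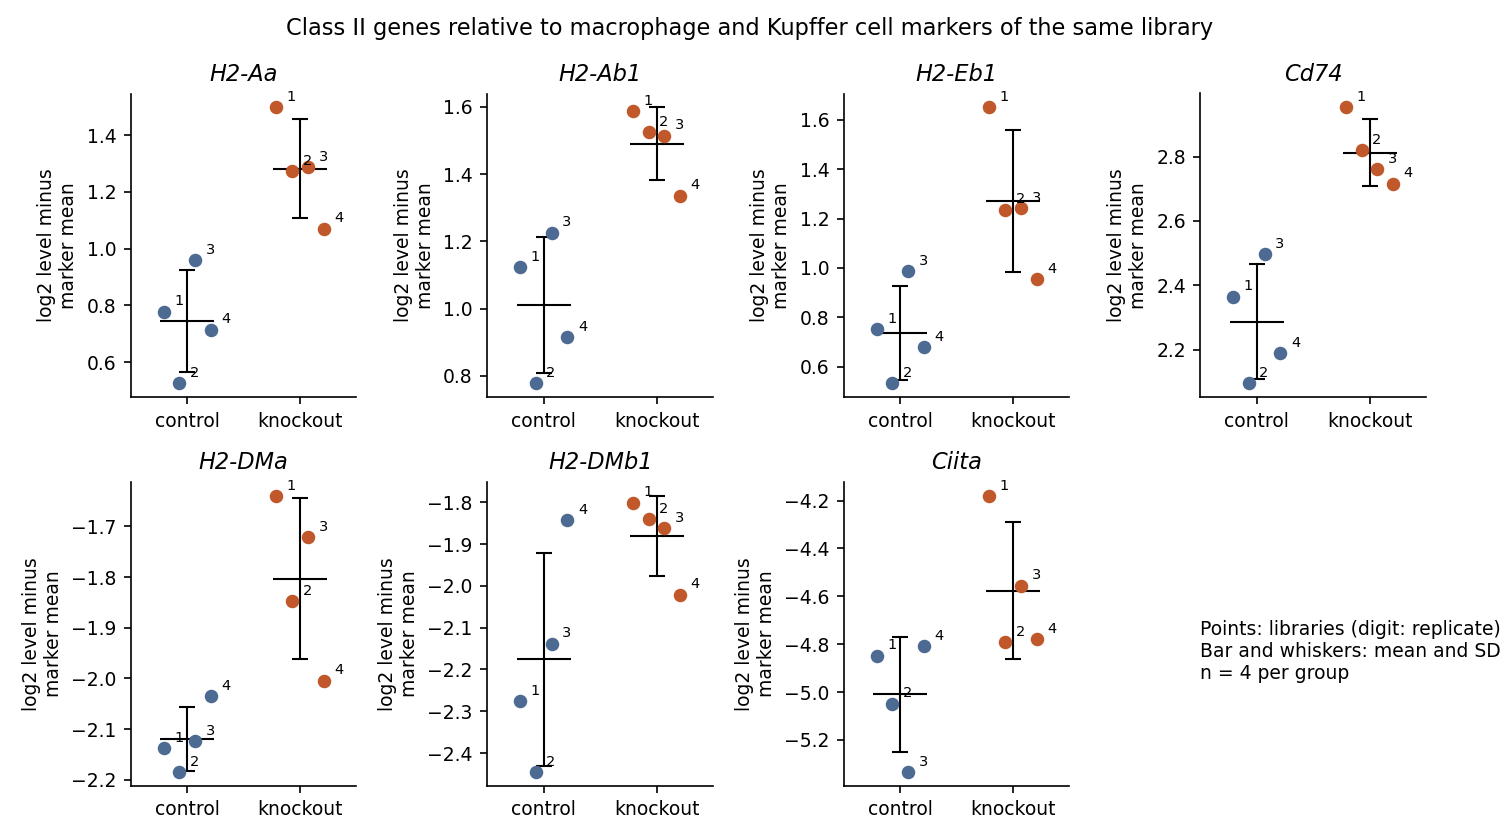
Level of each class II gene relative to macrophage and Kupffer markers, as log2(TPM + 1) minus the mean of 11 markers in the same library, with controls in blue, knockouts in orange, the replicate number beside each point, and the mean and SD of 4 libraries as bars. The vertical axes do not start at 0. Knockouts lie above all controls for *H2-Aa*, *H2-Ab1*, *Cd74*, *H2-DMa* and *Ciita*.

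The count depended on the reference. *Marco* differed between the groups itself, and without it the groups stayed apart for *H2-Aa*, *H2-Ab1* and *Cd74*, 3 of 7 members, beside 0.535% of all genes. Against the 7 leukocyte markers they stayed apart for *H2-Aa* and *Cd74*, 2 of 7 members, beside 0.779% of all genes, and the difference of *H2-Aa* was 0.39 (adjusted p = 0.924 in limma). Against single markers, *H2-Aa* was apart for 7 of 12, namely *Timd4*, *Marco*, *Csf1r*, *Cd68*, *C1qa*, *C1qb* and *C1qc*. For *Timd4* and *Marco*, which were themselves lower in the knockouts without overlap, this was so for 78.4% and 76.2% of all genes and carries no information on the member. For *Csf1r*, *Cd68*, *C1qa*, *C1qb* and *C1qc* it was so for 1.09%, 0.779%, 0.59%, 1.2% and 0.614% of all genes. Of the 7 members, 4, 1, 2, 4 and 3 were apart for these markers in the same order. *H2-Eb1* and *H2-DMb1* were apart for none of them, and *Ciita* for *Csf1r* alone. The ratio of *H2-Aa* to *C1qa*, a complement gene expressed by macrophages, was 0.855, 0.758, 0.941 and 0.778 in the controls and 1.07, 0.946, 1.18 and 1.02 in the knockouts. Knockout 2 was barely above floxed control 3. Against *Adgre1*, *Clec4f*, *Vsig4*, *Lyz2* and *Cd5l* the groups overlapped for *H2-Aa*. For these markers 0.165%, 0.488%, 0.574%, 0.614% and 0.803% of all genes had higher knockouts without overlap. The only member apart for any of them was *Cd74*, against *Cd5l*. The ratio of *H2-Aa* to *Ptprc* overlapped too, and was 18.6, 15.1, 26.5 and 23.5 in the controls and 39.5, 27.1, 22.0 and 22.6 in the knockouts.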

How the data were processed

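Liver RNA of 4 floxed controls and 4 hepatocyte knockouts, grouped and numbered by the sample titles, was sequenced from stranded total RNA libraries, per the labels. The deposited table, made by the authors, holds TPM values of 55416 gene identifiers to 2 decimals. RSEM 1.3.3 and a build, GRCh38.p13, appear in the submitters' processing notes. That build is human, although the identifiers are of mouse genes. The aligner, annotation release and strand option were not given in the sources used here. Symbols matched 52083 identifiers.

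Values were taken as log2(TPM + 1). Genes at 1 TPM or more in at least 4 of 8 libraries were tested with limma 3.58.1 in R 4.3.3 (lmFit, eBayes with trend, no covariates, 2-sided, Benjamini-Hochberg over all 12710 genes, threshold 0.05), which was tested on simulated data. The members and gene lists were chosen with earlier results of these data known. Named besides the members were up to 4 genes of smallest p per list, defining cell markers, *Smpd3*, and the 8 genes most correlated with the members. *Rfx5*, *Rfxap*, *Ctss*, *Ifng*, *H2-Eb2*, *H2-Ea* and single macrophage markers were named after their values were seen. Other listed genes enter the counts without being named.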

Additional observations from a re-analysis of the deposited data

Results flagged for a closer look

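In groups of 4 libraries, a library was marked when its gap to the nearest other library exceeded Dixon's critical share of the group's range, which chance does in about 1 of 20 groups. Of 84 groups examined, 3 were marked, and none was of a class II member. *Nfya* in knockout 1 stood at 5.27 TPM, below the other knockouts at 7.56 to 7.99 TPM. *Ifngr1*, a chain of the interferon gamma receptor, stood at 21.79 TPM in floxed control 4, below the other controls at 29.73 to 30.56 TPM. *Siglech*, a plasmacytoid dendritic cell marker, stood at 1.59 TPM in knockout 2, above the other knockouts at 1.12 to 1.17 TPM.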

How the results depend on the processing

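All values of the 7 members stayed above 0 under each of 19 alternatives (*Ciita* was left out at a mean of 5 TPM or more), none passed, and the smallest adjusted p was 0.272 (limma, *H2-Eb1* without floxed controls 3 and 4). The number of genes past the threshold over the whole table, 13, became 8 and 6 with pseudocounts of 0.1 and 5, 0 without a filter, 25 after rescaling without mitochondrial and the 20 most abundant genes, 4 relative to macrophage markers, 5 relative to leukocyte markers and 1 without floxed controls 3 and 4. Leaving out 1 library gave 0 to 12. The cause of these changes was not tested. The labels do not say whether the replicate numbers pair libraries. Deviations of same-numbered libraries correlated at -0.153, 0.031, -0.153 and -0.195, and no control correlated best with the knockout of its own number. With 4 libraries per group these values cannot exclude a pairing. The replicate block left 0 genes past the threshold and the members' values as they were. Besides the members, only a chosen part of the listed genes was recomputed under every alternative. In that part 4 markers turned sign, and none of them passed. The count is not one of all listed genes. *Ctss*, outside that part, went from 0.06 to -0.18 without floxed control 4. Of the 11 tested macrophage markers, 7 had higher values with all libraries and 0 without floxed control 4. Leaving out 1 library gave -0.048 (without floxed control 4) to 0.27 for *C1qa*, -0.18 to 0.26 for *Ptprc* and -0.47 to 0.19 for *Adgre1*. *Cd79a* was -0.00021 relative to leukocyte markers. *Ptprc* was -0.18 without floxed control 4, -0.02 without knockout 3, -0.02 without knockout 4, -0.029 relative to leukocyte markers and -0.22 without floxed controls 3 and 4. *Adgre1* was 0.11, 0.10 and 0.02 without floxed controls 1, 2 and 3, and 0.19 without knockout 1. The comparisons relative to markers and without floxed controls 3 and 4 were chosen after the data were seen. Depth is unknown, which limits the low values of *Ciita*.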
